A study of Homo sapiens with 3 samples.

Results

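The 5 genes described here, *GPNMB*, *PMEL*, *MLANA*, *CTSK* and *TRIM63*, are used in pathology as markers of kidney tumors driven by fusions of the transcription factor TFE3. Their loci were examined for binding of the fusion HA-PSF-TFE3, in which SFPQ (also called PSF) is joined to TFE3 behind an HA tag. Members were every peak summit whose position fell in a window of the gene with about 10 kb on each side, so that a summit was taken by its position and not by its score. The genes themselves were chosen with earlier results of these data known. There were 13 such summits among 44983 in replicate 8 and 8 among 28084 in replicate 9, a mean of 10.5 ± 3.54 (SD, n = 2). The data were lists of summits from ChIP-seq, which sequences the DNA fragments that an antibody pulls down together with a tagged protein, and each summit is the base of highest enrichment within a peak.

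Both ChIP libraries, replicates 8 and 9, came from HK-2, a human cell line of kidney proximal tubule, with HA-PSF-TFE3 under doxycycline control, and the cells had received 0.2 µg/ml doxycycline for 24 h. The study describes them as independent clones. A library of input DNA from cells treated alike was used by the authors as background in peak calling and has no list of its own. No uninduced cells were profiled here, so there was 1 group of 2 libraries and no contrast between conditions. Each summit has a score, the −log10 of its q-value, for which a higher value is a more significant enrichment over input. Scores were not scaled between libraries, so percentiles are given beside them, each being the share of its own list that scored the same or lower. Percentiles place a summit within its list and do not compare the libraries. The lists hold 44983 summits in replicate 8 and 28084 in replicate 9, so equal ranks give the higher percentile in replicate 8. Read depth is not part of the lists. The study states read totals for both libraries, which were not used here, so nothing below is scaled to depth. A gene without a summit is one at which no peak passed the authors' threshold. This series holds no RNA data, and the values below are of binding and not of the expression of these genes.

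TFE3 belongs to the MiT/TFE family with MITF, TFEB and TFEC. Its members bind short E-box sequences as dimers and drive genes of lysosomes and, in pigment cells, of melanosomes, which are lysosome-related organelles. GPNMB is a membrane glycoprotein of both organelles, PMEL forms the fibrils on which melanin is laid down, and MLANA (Melan-A) is a small melanosomal membrane protein recognised by T cells in melanoma. CTSK (cathepsin K) is the lysosomal protease with which osteoclasts digest bone collagen. TRIM63 (MuRF1) is an E3 ubiquitin ligase of striated muscle that is also used as a marker of these tumors.

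RefSeq promoter sequences were at hand for 3 of the 5 genes, *GPNMB*, *TRIM63* and *MLANA*, and are shown because the E-box is the sequence read by TFE3. The AP-1 element, which FOS and JUN dimers read, was searched beside it. Each run is the 250 bases before the gene start, written 5′ to 3′ in the direction of transcription, on GRCh38.p14, a build other than that of the summits. They lie at chr7:23246525-23246774 (plus strand) for *GPNMB*, chr1:26067631-26067880 (minus strand) for *TRIM63* and chr9:5890639-5890888 (plus strand) for *MLANA*. Capitals mark E-boxes (the palindrome CACGTG, the form CATGTG with its reverse complement CACATG, and the palindrome CATATG) and AP-1 elements (TGAGTCA with its reverse complement TGACTCA), searched on both strands. The form CATGTG is the core of the M-box of pigment cell promoters.
GPNMB: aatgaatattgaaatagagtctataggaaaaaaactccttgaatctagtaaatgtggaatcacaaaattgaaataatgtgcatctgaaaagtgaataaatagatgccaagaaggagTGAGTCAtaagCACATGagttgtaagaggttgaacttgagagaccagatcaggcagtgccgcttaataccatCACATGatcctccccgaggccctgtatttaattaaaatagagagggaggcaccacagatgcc
TRIM63: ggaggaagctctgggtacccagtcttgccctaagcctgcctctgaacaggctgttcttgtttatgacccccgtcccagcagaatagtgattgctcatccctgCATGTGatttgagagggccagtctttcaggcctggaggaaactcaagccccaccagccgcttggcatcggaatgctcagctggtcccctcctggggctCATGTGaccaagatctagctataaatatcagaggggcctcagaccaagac
MLANA: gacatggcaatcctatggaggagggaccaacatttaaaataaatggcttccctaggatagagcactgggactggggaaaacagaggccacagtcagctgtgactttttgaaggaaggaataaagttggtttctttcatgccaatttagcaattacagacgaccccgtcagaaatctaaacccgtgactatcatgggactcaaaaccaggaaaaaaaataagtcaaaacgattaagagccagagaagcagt

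The *GPNMB* promoter held 2 E-boxes spelled CACATG, which is CATGTG on the other strand, at 123 to 118 and at 62 to 57 bases before the start, and an AP-1 element at 134 to 128 bases, 4 bases from the farther E-box. The *TRIM63* promoter held 2 E-boxes spelled CATGTG, at 148 to 143 and at 50 to 45 bases. *MLANA* had none of the listed spellings in this stretch. The form CATGTG or CACATG was present in 9.54% of the 27305 RefSeq promoters searched, and 2 or more copies were present in 1.19%. The palindrome CACGTG was in 0 of the 3 marker promoters and in 6.49% of all, and the AP-1 letters were in 1 of 3 and in 4.16% of all. Among 12 other melanocyte genes, 10 had a promoter at hand, of which 7 held CATGTG or CACATG (*TYR*, *TYRP1*, *OCA2*, *MC1R*, *TRPM1*, *GPR143* and *SLC24A5*) and 0 held CACGTG. Of 8 other MiT/TFE targets, 5 had a promoter at hand, of which 0 held CATGTG or CACATG and 2, *MCOLN1* and *CTSD*, held CACGTG. These matches describe letters only and were not related to any summit by position.

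**Figure D1:**
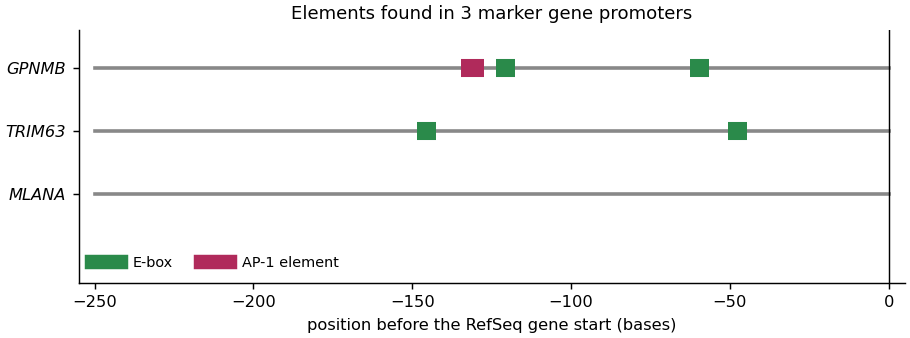
Positions of E-boxes and of the AP-1 element in the 250 bases before the RefSeq start of *GPNMB*, *TRIM63* and *MLANA*; the x axis is in bases before the start. *GPNMB* has 2 E-boxes and an AP-1 element, *TRIM63* has 2 E-boxes, and the line for *MLANA* is empty.

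Summits were found at 4 of the 5 genes, and the same 4, *GPNMB*, *MLANA*, *CTSK* and *TRIM63*, had at least 1 summit that recurred, meaning that the other list held a summit within 200 bp. *PMEL* had 0 in both lists. For comparison, the chromosomes were cut into tiles of 37.8 kb, the mean width of the 5 windows. At least 1 summit was present in 28% of tiles in replicate 8 and in 21.1% in replicate 9, and 18.4% held a replicate 8 summit that recurred. Tiles cover gene-poor sequence and assembly gaps as well as genes, so they describe the lists and are not a set of comparable genes. Summits numbered 6.88 per 100 kb over the 5 windows in replicate 8 and 4.23 in replicate 9, compared with 1.47 and 0.919 over the whole lists.

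By gene, *TRIM63* had 6 summits in replicate 8 and 3 in replicate 9, *GPNMB* had 4 and 2, *MLANA* had 2 and 1, and *CTSK* had 1 and 2. *CTSK* was the only gene of the 5 with more summits in replicate 9 than in replicate 8. The total in replicate 8 was 1.62 times that in replicate 9, close to the ratio of 1.60 between the whole lists. The *TRIM63* window stood highest against tiles of its own width, of which 0.928% held 6 or more summits in replicate 8 and 3.01% held 3 or more in replicate 9. For *GPNMB* these shares were 5.34% with 4 or more and 10.4% with 2 or more. For *CTSK* they were 25.1% with 1 or more and 6.35% with 2 or more, and for *MLANA* 13.9% with 2 or more in replicate 8, while in replicate 9, where it had 1, 78.0% of such tiles were empty. The libraries thus ordered *GPNMB* and *CTSK* differently.

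**Figure D2:**
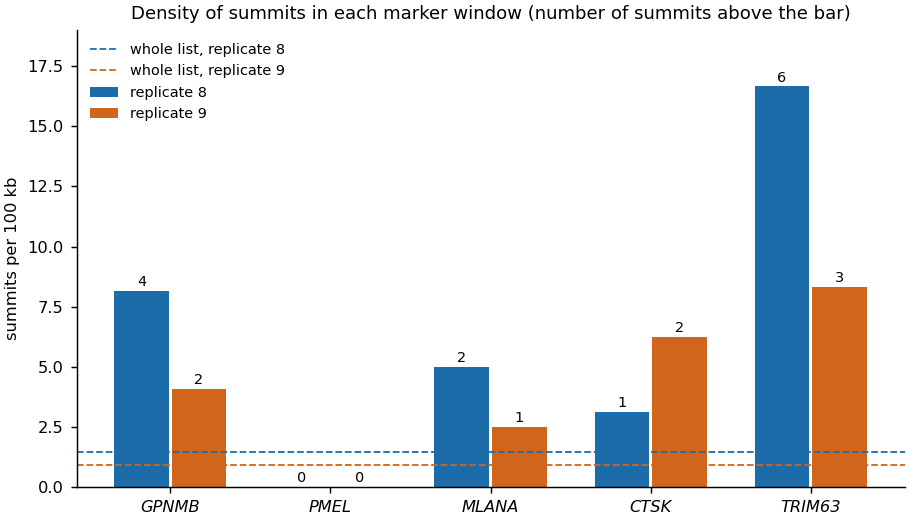
Summits per 100 kb in each marker window, with bars for replicate 8 (blue) and replicate 9 (orange), the number of summits above each bar, and dashed lines for the density of each whole list. *TRIM63* is densest in both libraries, and *PMEL* is at 0 in both.

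*GPNMB*, a much used reporter of TFE3 activity, had a recurring summit at its 5′ end. Positions here and below are on hg19, counted from 1. On chromosome 7 this summit lay at 23286384 in replicate 8, with a score of 15.8 (percentile 75.3), and at 23286332 in replicate 9, with a score of 13.3 (percentile 59.1). The libraries placed it 52 bp apart, and it was the strongest in the window in both. It lay 0.384 and 0.332 kb inside the left end that the window gives the gene, which is transcribed rightward, and window edges are rounded to 1 kb. Its place relative to the promoter letters printed above is therefore known to about 1 kb only.

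A weaker pair lay 3.8 kb upstream of *GPNMB*, at 23282216 and 23282177, 39 bp apart, and its scores were 9.18 (percentile 55.5) and 4.23 (percentile 12.7). This was the widest gap in percentile among the recurring pairs, 42.7 points, between lists of unequal length. The ranks of this pair were 20033 in replicate 8 and 24512 in replicate 9. Replicate 8 alone had a summit inside the gene near its 3′ end, at 23312893 with a score of 7.64, and another 8.72 kb beyond that end, at 23323717 with a score of 10.1. The nearest replicate 9 summit to these was that at the 5′ end, 26.6 and 37.4 kb away. A further pair fell just outside the window, at 23275623 and 23275743, 0.377 and 0.257 kb from its left edge, with scores of 13.5 and 13.0, similar to those at the 5′ end.

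*TRIM63* carried the most summits of the 5 windows, through its flanks. Inside the gene it had 1 in replicate 8 and 0 in replicate 9, compared with 2 and 1 for both *GPNMB* and *MLANA*. Gene ends are placed to about 1 kb, and some of these counts depend on that. A replicate 8 summit counted as 0.152 kb upstream of *TRIM63* falls within this limit. So does the *GPNMB* pair counted as 0.384 and 0.332 kb inside. The strongest *TRIM63* summits lay beyond the 3′ end of the gene. This pair was on chromosome 1 at 26376335 in replicate 8, with a score of 21.3 (percentile 84.3), and at 26376382 in replicate 9, with a score of 16.9 (percentile 67.2), 47 bp apart and 1.67 and 1.62 kb past the end of the gene. A second pair, at 26372454 and 26372603 with scores of 6.98 and 5.96, lay 5.55 and 5.40 kb past it. Both pairs are on the side of *SLC30A2*, which encodes a zinc transporter, is the next protein-coding gene there and is read in the same direction as *TRIM63*, so that its 5′ end faces the 3′ end of *TRIM63*. The distance from either pair to the start of *SLC30A2* was not measured, so a pair may lie at that start. Which of these genes, if either, the summits serve cannot be read from their position.

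At the 5′ end of *TRIM63* itself, whose promoter holds the pair of E-boxes shown above, summits were present in replicate 8 only. They lay at 26394152, 0.152 kb upstream, with a score of 5.71, at 26395570, 1.57 kb upstream, with a score of 2.68, and at 26391365, 2.63 kb inside the gene, with a score of 7.95. These scores fell at percentiles 34.6, 5.11 and 48.6 of their list, and replicate 9 had no summit within 6.92 kb of any of them. The last recurring pair was farther upstream, at 26402415 and 26402487, 72 bp apart, with scores of 6.64 and 5.31.

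*CTSK* had the highest score in the 5 windows in both libraries, a rank that held for flanks of 10 kb but not for the others tried. Without flanks *GPNMB* led in both libraries, and with flanks of 20 kb *TRIM63* did, through the summits with scores of 34.5 and 40.5 described below. The *GPNMB* lead rests on a pair less than 1 kb inside a gene end that is placed to about 1 kb. For *CTSK*, on chromosome 1, the replicate 8 summit at 150782352 scored 30.8 (percentile 93.2). The replicate 9 summit at 150782430, 78 bp away, scored 19.2 (percentile 71.7). They lay 1.35 and 1.43 kb upstream of the 5′ end. Replicate 9 had a second summit at 150781620, nearer to the gene at 0.62 kb upstream, with a score of 18.1, which was almost as high and was 732 bp from the replicate 8 summit. It was the only replicate 9 summit of the 5 windows that did not recur. All 3 summits were on the side of *ARNT*, which encodes the partner of the hypoxia-inducible factors and is the next protein-coding gene upstream, and none lay inside *CTSK*. Their distance to *ARNT* was not measured, so whether any lies inside that gene is not known here.

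*MLANA* had the weakest recurring summit. On chromosome 9 it lay at 5895994 in replicate 8, with a score of 3.65 (percentile 12.5), and at 5895814 in replicate 9, with a score of 2.46 (percentile 1.89). These were 180 bp apart, near the limit of 200 bp, and farther apart than any other pair at the marker genes. They were 4.99 and 4.81 kb inside the gene. A stronger summit at 5898144, with a score of 6.83, was 7.14 kb inside the gene, was found in replicate 8 only and had no replicate 9 summit within 2.33 kb. *MLANA* lies within the longer gene *BRD10* in RefSeq, so these summits lie within both. Neither library had a summit at the 5′ end of *MLANA*.

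*PMEL* was without a summit from 4.06 kb left of its window to 70.9 kb right of it in replicate 8, and from 20.2 kb left to 70.9 kb right in replicate 9. The flanking summits were at 56333938 and 56440871 on chromosome 12 in replicate 8, 107 kb apart, with scores of 5.83 and 16.8. In replicate 9 they were at 56317767 and 56440860, 123 kb apart, with scores of 4.23 and 9.97. The stretch also holds the start of *CDK2*, the cyclin-dependent kinase gene next to *PMEL* in RefSeq, which is read in the opposite direction so that the 5′ ends of both genes face each other. Empty tiles of the same 32 kb width were common, at 74.9% in replicate 8 and 81.3% in replicate 9.

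**Figure D3:**
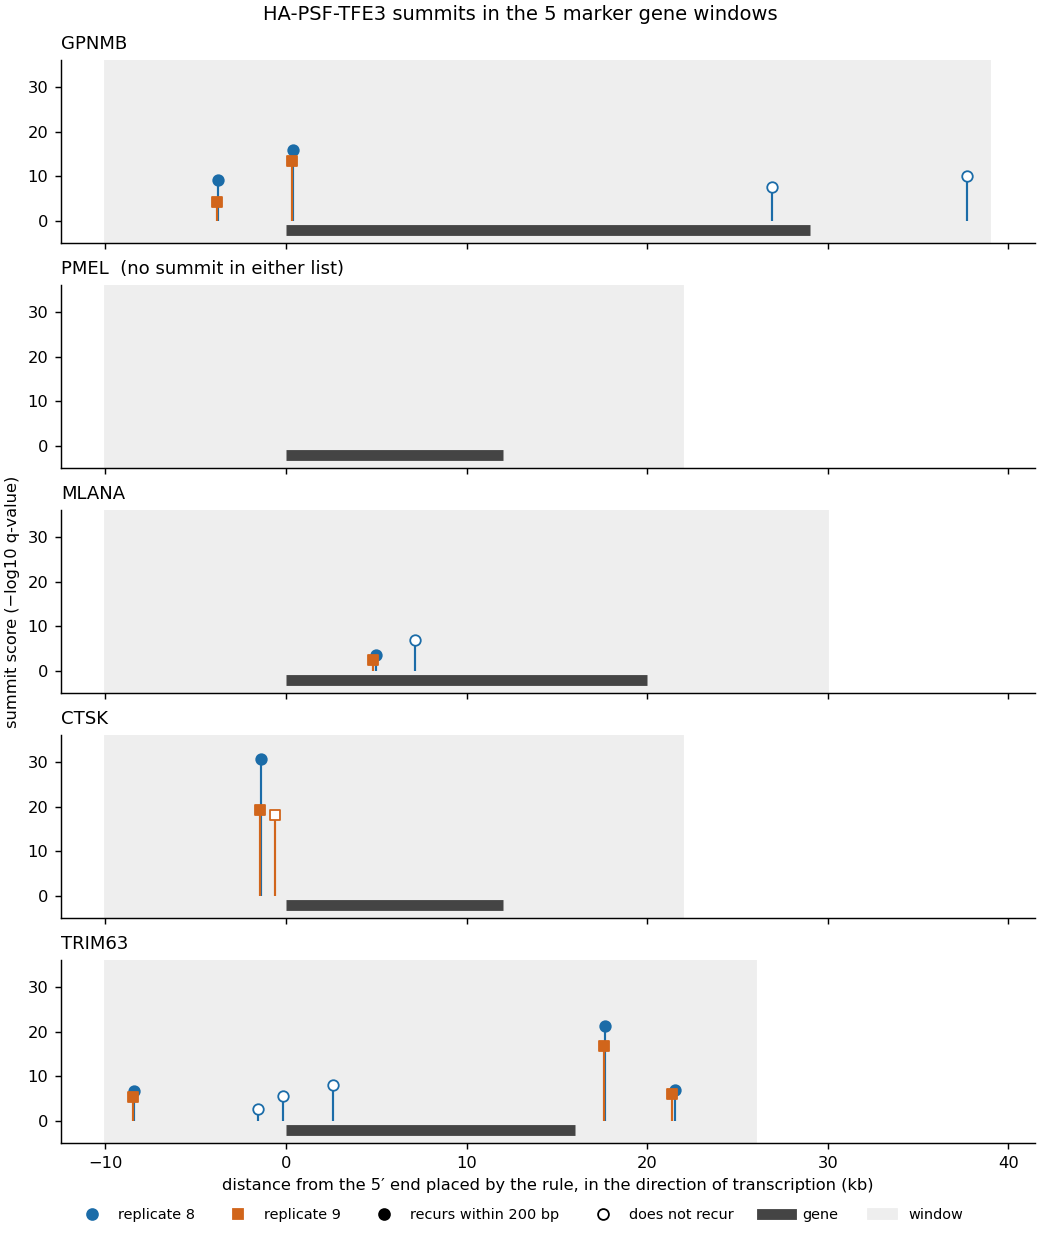
Score (−log10 q-value) of every summit in the 5 windows against its distance in kb from the 5′ end of the gene as placed by the window, in the direction of transcription; circles are replicate 8, squares are replicate 9, filled symbols recur within 200 bp, the dark bar is the gene and the grey area the window. The *GPNMB* pair sits at the 5′ end, that of *CTSK* just upstream, the strongest pair of *TRIM63* just past its 3′ end, and *PMEL* is empty.

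Of the 13 summits in replicate 8, 7 recurred (53.8%, 95% Wilson interval 29.1 to 76.8%), compared with 47.9% of its whole list. Of the 8 in replicate 9, 7 recurred (87.5%, 95% Wilson interval 52.9 to 97.8%), compared with 76.6% of its list. Both list-wide shares lay inside these wide intervals, which cover counting error only and treat neighbouring summits as independent. The same 7 pairs stand behind both shares. Whether the marker summits differ from the lists was not tested. The recurring summits were 2 at *GPNMB*, 3 at *TRIM63*, 1 at *CTSK* and 1 at *MLANA*. The 7 pairs were a median of 72 bp apart, within a range of 39 to 180 bp, and the 21518 pairs of the whole lists were a median of 52 bp apart.

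In replicate 8 the recurring summits at the marker genes had a median score of 9.18 and the 6 others had 7.23, but the ranges overlapped, since the lowest recurring score was 3.65 and the highest of the others was 10.1. In replicate 9 the order was the opposite, with a median of 5.96 for the recurring summits and a score of 18.1 for the 1 other, at *CTSK*. Of the 13 summits in replicate 8, 4 scored 10 or more, as did 4 of the 8 in replicate 9, compared with 41.7% and 51.6% of the lists. They lay at 3 genes and comprised the *CTSK* summits, the *GPNMB* summit at the 5′ end and the *TRIM63* summit beyond the 3′ end in both libraries, and the *GPNMB* summit beyond the 3′ end in replicate 8 only. All 7 pairs had the higher percentile in replicate 8, as did 74.4% of pairs over the whole lists. The longer list of replicate 8 gives a higher percentile at equal rank, so this is not a measure of stronger binding. The *GPNMB* summit at the 5′ end, for example, ranked 11108 in replicate 8 and 11490 in replicate 9.

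**Figure D4:**
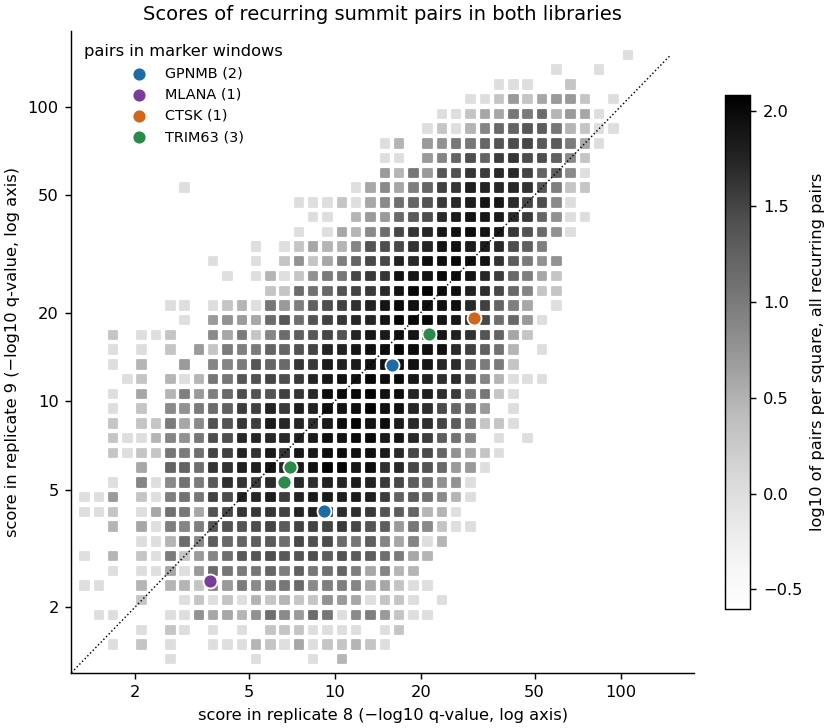
Scores of recurring pairs in replicate 8 (x axis) and replicate 9 (y axis), both as −log10 q-values on log axes; grey squares give the density of all 21518 pairs, colored points the 7 pairs at marker genes, and the dotted line equal scores. The marker pairs spread from *MLANA* at 3.65 and 2.46 to *CTSK* at 30.8 and 19.2, and all lie below the line. The share of all pairs below the line was not computed, so this is not read as a trait of the marker pairs.

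The surroundings of the 5 genes differed. Within 100 kb beyond each window, *CTSK* was the only one of the 5 genes whose window held the strongest summit in both libraries. Its nearest neighbours to the left were 173 kb from the window in replicate 8 and 181 kb in replicate 9, and those to the right were 17.8 and 77.0 kb away. For *GPNMB*, 2 summits in replicate 8 and 1 in replicate 9 within that distance scored above its own strongest. For *TRIM63* this held for 2 summits in each library. The nearest of these, at 26362992 in replicate 8 with a score of 34.5 and at 26363079 in replicate 9 with a score of 40.5, lay 5.01 and 4.92 kb outside the window. For *MLANA*, 4 summits scored above its own strongest in each library.

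**Figure D5:**
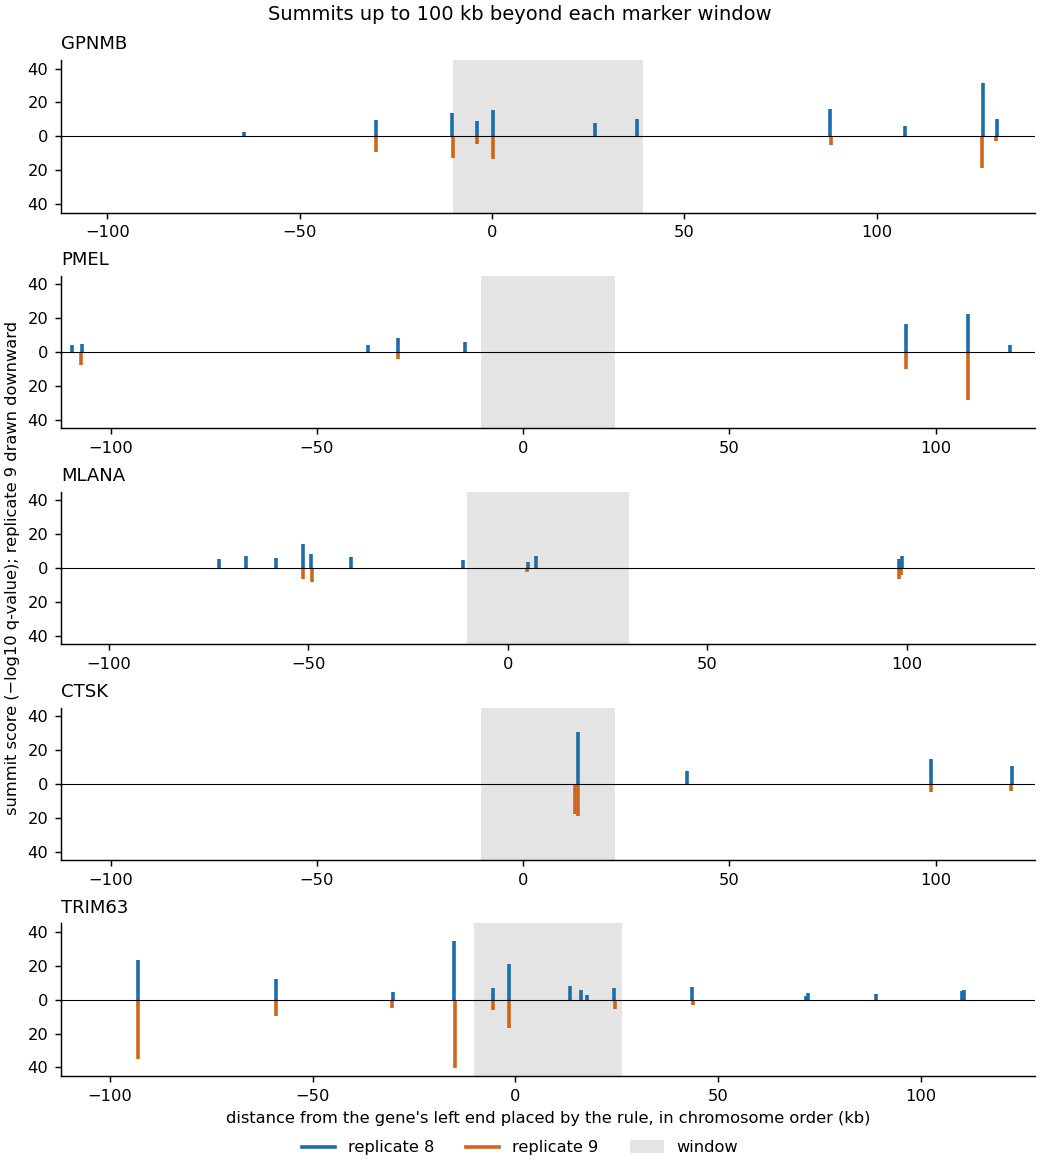
Summits in each marker window (grey) and up to 100 kb beyond it, by distance in kb from the left end of the gene in chromosome order; scores (−log10 q-value) of replicate 8 are drawn upward in blue and those of replicate 9 downward in orange. *CTSK* has no other summit within 100 kb to its left. The *PMEL* window and the 70.9 kb to its right are empty in both libraries. Stronger summits flank the *TRIM63* window on its left.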

How the data were processed

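The authors ran MACS2 on each ChIP library alone, with input DNA as control and without pooling. The deposited values are 1 summit per peak with a score that is a −log10 q-value. The sources differ on whether the cutoff was a p-value or a q-value, and the version of MACS2 is not given in the sources used here. The labels name hg19 and one passage of the methods names hg38. Beyond the ends of hg38 chromosomes lay 364 summits of replicate 8 and 262 of replicate 9, so hg19 was taken and no coordinate was converted. Libraries were grouped by their titles, which name PSF-TFE3, while the design text names PRCC-TFE3.

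Windows were used as given, in kb. Gene ends were placed 10 kb inside their edges and are known to about 1 kb. The windows without flanks were 12 to 29 kb wide and the RefSeq genes 12.1 to 28.3 kb long. Strand came from GENCODE v44 and gene order and promoters from RefSeq (GRCh38.p14), by symbol. Tiles ran to the last summit of each chromosome. No test was run, because there was 1 group. The members and lists were chosen with earlier results of these data known. All 5 genes and all their summits are named. Alternatives were minimum scores, flanks, distances, merging, equal list lengths, each library alone and E-box spellings. Distance and tile functions were tested on simulated lists. Scripts ran in Python 3.11.15 with pandas 2.3.3, numpy 2.4.6, matplotlib 3.10.9 and scipy 1.17.1. The precision is limited by the small number of summits, and the read totals stated by the study were not used here.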

Additional observations from a re-analysis of the deposited data

How the results depend on the processing

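Of 34 alternatives, 23 left the value within 1.5 times (counts), within its 95% interval (shares) or unchanged, and 11 moved it. The mean of 10.5 summits per library became 4 with a minimum score of 10 and 3.5 without flanks, and each library alone gave from 8 to 13. The 4 genes with a recurring summit became 2 without flanks, *GPNMB* and *MLANA*, and 2 within 50 bp, *GPNMB* and *TRIM63*. Gene ends are known to about 1 kb, and the *GPNMB* pair kept without flanks lay less than 1 kb inside. Within 50 bp the share of recurring summits was 15.4% in replicate 8 and 25% in replicate 9. The shares of the whole lists at 50 bp were not computed. Pairs over the whole lists were a median of 52 bp apart, so this limit removes many of those as well. Without flanks the share was 100% in replicate 9, where only 2 summits were left. *CTSK* held the strongest summit in 2 of 2 libraries, but in 0 without flanks, where it was *GPNMB*, and in 0 with flanks of 20 kb, where it was *TRIM63*; fewer or more summits in the windows account for both by construction. Marker promoters with an E-box numbered 0 of 3 for CACGTG, 2 for the 4 E-box spellings searched and 3 for any CANNTG. The rise follows from the wider spelling, and the shares over all promoters were 6.49%, 17.6% and 62.2%. No paired analysis was possible because there is 1 group. A minimum score of 5 or 10, or lists of equal length, left 3 genes with a recurring summit. Whether summits found in 1 library alone depend on read depth was not examined.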
